A study of Mus musculus with 14 samples.

Results

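The stretches of mouse liver chromatin described here are listed H3K4me1 regions that touched no protein-coding gene body, that is, no base between the annotated start and end of such a gene. There were 942 of these intergenic regions among 12179 H3K4me1 regions in all, 610 of 6274 in YAP livers and 332 of 5905 in WT livers. The regions were chosen by their listed positions, in lists made from the measured enrichment, against an NCBI RefSeq gene table of the mm10 build, so that lying outside genes is a matter of selection and not a result. Livers came from C57BL/6 mice carrying a YAP transgene whose expression was induced with doxycycline, 50 mg/L in the drinking water for 10 days (YAP), and from wild-type C57BL/6 mice (WT). The labels attach doxycycline to all samples, and it is not clear from them if WT mice drank it. They give neither the age of the mice nor the promoter of the transgene. Chromatin was cut with micrococcal nuclease and immunoprecipitated for H3K4me1, H3K4me2 or LSD1, with 2 replicates per antibody and genotype and 1 input per genotype, which made 14 libraries. A single region list per antibody and genotype stood for both replicates, which leaves no replicate error, no test of a difference between genotypes, and an unknown read depth. Shares are given with Wilson 95% intervals and differences of shares with Newcombe intervals, which take regions as independent of each other and cover counting error alone.

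H3K4me1, monomethylated lysine 4 of histone H3, marks enhancers and the flanks of active promoters. H3K4me2, the dimethylated form, lies at both kinds of element, and LSD1, encoded by Kdm1a, is a demethylase that removes methyl groups from both forms. Intergenic space holds distal enhancers and many genes for long noncoding RNA (lncRNA) and microRNA (miRNA), and in liver enhancers of this kind lie around genes of hepatocyte identity. YAP is a transcriptional co-activator of the Hippo pathway that acts through TEAD factors, which bind mainly at enhancers. The gene named below as nearest to a region gives its position only, since no measurement here links a region to a gene.

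The sequences of the regions themselves were not used here, but those of some noncoding genes beside them show what lay there. The let-7 miRNAs, repressors of growth-promoting mRNAs, and miR-30a had intergenic H3K4me1 within 5 kb. At that distance it was listed in both genotypes at the let-7 cluster on chromosome 13. It was listed in WT at the let-7 pair on chromosome 15 and at miR-30a. Their mature strands, from RefSeq on GRCm38.p6 and written 5′ to 3′, carry the seed (bases 2 to 8) in capitals, and all 5 let-7 strands have the seed GAGGUAG.
mmu-let-7a-5p (Mirlet7a-1, chr13:48538239-48538260, minus strand): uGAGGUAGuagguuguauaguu
mmu-let-7f-5p (Mirlet7f-1, chr13:48537889-48537910, minus strand): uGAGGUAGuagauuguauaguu
mmu-let-7d-5p (Mirlet7d, chr13:48536078-48536099, minus strand): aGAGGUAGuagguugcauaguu
mmu-let-7c-5p (Mirlet7c-2, chr15:85706616-85706637, plus strand): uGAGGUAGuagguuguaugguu
mmu-let-7b-5p (Mirlet7b, chr15:85707325-85707346, plus strand): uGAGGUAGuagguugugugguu
mmu-miR-30a-5p (Mir30a, chr1:23272274-23272295, plus strand): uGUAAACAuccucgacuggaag

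A pair of lncRNA promoter windows, running from 250 bases before to 50 after an annotated start in RefSeq on GRCm38.p6, is printed 5′ to 3′ to show how much of a window an intergenic region could take up. Capitals mark the bases inside an H3K4me1 region. The window of Gm40614 lay wholly inside a YAP region, whereas that of 9030622O22Rik, a lncRNA gene beside Foxa2, was entered by a WT region over 62 bases (a second WT region reached 4 bases at its other end, which are left in lower case).
Gm40614 (chr10:24132435-24132734, minus strand): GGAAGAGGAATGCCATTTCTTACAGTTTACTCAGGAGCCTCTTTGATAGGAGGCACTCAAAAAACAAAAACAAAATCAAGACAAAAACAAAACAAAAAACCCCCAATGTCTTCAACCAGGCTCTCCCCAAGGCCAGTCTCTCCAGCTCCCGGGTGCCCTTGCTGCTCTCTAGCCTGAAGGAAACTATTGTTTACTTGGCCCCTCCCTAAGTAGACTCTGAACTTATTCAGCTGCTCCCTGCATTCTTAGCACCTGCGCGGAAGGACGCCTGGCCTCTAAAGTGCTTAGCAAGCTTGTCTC
9030622O22Rik (chr2:148031939-148032238, minus strand): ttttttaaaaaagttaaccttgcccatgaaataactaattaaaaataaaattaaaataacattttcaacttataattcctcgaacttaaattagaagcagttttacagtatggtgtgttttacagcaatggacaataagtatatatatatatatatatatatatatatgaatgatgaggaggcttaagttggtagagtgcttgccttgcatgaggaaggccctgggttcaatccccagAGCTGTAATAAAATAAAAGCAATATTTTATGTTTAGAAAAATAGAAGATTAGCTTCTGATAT

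In the full lists, YAP livers had more intergenic H3K4me1 regions than WT livers, while the number on gene bodies was nearly the same. Intergenic regions made up 9.72% (9.01% to 10.5%) of the YAP list and 5.62% (5.06% to 6.24%) of the WT list, a difference of 4.10 percentage points (3.16 to 5.04). The ratio of YAP to WT regions was 1.84 between genes and 1.02 on gene bodies, and that of covered bases was 1.94 between genes (189 kb in YAP and 97.6 kb in WT) and 1.07 on gene bodies. Among regions with a −log10 q-value above 0 YAP had 341 intergenic of 3896 and WT 87 of 1919, shares of 8.75% and 4.53%. Gene-body regions too were more numerous in YAP in that setting, so their near equality depends on regions with a value of 0. With lists of equal size, by score, the intergenic counts were 567 in YAP and 332 in WT. The share was higher in YAP on 19 of 19 chromosomes, at 6.73% to 15.5% in YAP and 2.76% to 10.7% in WT. No H3K4me1 region of either genotype was listed on X or Y, where the H3K4me2 lists had 962 regions in YAP and 963 in WT. The other antibodies did not show such a difference in share. Of H3K4me2 regions, 28.8% in YAP and 28.3% in WT were intergenic (a difference of 0.50 points, −0.05 to 1.04), and of LSD1 regions 38.3% in YAP and 37.4% in WT (0.85 points, −2.18 to 3.84).

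Intergenic H3K4me1 was sparse for the space it had. Between genes there were 0.429 regions per Mb in YAP and 0.234 in WT, against 5.77 and 5.67 per Mb of gene bodies, although gaps between genes made up 59.1% of the 2403 Mb searched. Intergenic regions were somewhat shorter than those on gene bodies, with medians of 279 bp against 316 bp in YAP and 250 bp against 296 bp in WT. The authors' score, which equals 10 times the −log10 p-value of a region, had the same median between genes and on gene bodies, 41 in YAP and 40 in WT. Even so, the intergenic share went down with score. From the lowest to the highest of 4 bands of score it was 11.4%, 10.1%, 9.28% and 6.49% in YAP, and 6.32%, 6.05%, 4.95% and 4.34% in WT, so that YAP stood above WT in every band. Few regions lay at the limit of the selection, with the closest intergenic region 39 bp from a gene body in YAP and 22 bp in WT. Within 100 bp there were 4 in YAP and 3 in WT, and the gene-body region with the fewest bases on a gene had 27 in YAP and 11 in WT.

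The tissue label was set beside marker genes. All 5 hepatocyte markers (Alb, Apoa1, Ttr, Cps1 and Hnf4a) had H3K4me2 on the gene body in both genotypes, over 32 kb in YAP and 43.1 kb in WT. Markers of macrophages carried it on 5 of 5 genes in YAP and 1 of 5 in WT, over 6.98 kb and 0.493 kb. Endothelial markers carried it on 3 of 4 in YAP and 2 of 4 in WT (6.46 kb and 3.46 kb), bile duct markers on 3 of 5 in both (5.8 kb and 3.25 kb), with Krt7 and Krt19 bare, and stellate markers on 2 of 4 in both (0.982 kb and 4.93 kb). Of all protein-coding genes, 63.4% in YAP and 62.2% in WT carried H3K4me2, and the endothelial, bile duct and stellate counts lay near these shares. The length covered on the macrophage and hepatocyte markers differed between genotypes in opposite directions, for 5 genes each and 1 list per genotype. The part of such cells in the intergenic counts was not tested. In bulk liver, fewer cells of a type and less of a mark per cell cannot be told apart.

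Intergenic regions crowded near protein-coding genes in both genotypes. The median distance to the nearest gene body was 15.9 kb in YAP and 16.9 kb in WT. Within 5 kb of a gene lay 32.3% (28.7% to 36.1%) of YAP regions and 29.2% (24.6% to 34.3%) of WT regions, against 9.79% of all intergenic bases. Over 100 kb away lay 13.6% and 16.9%, against 46.3% of the bases. The genotypes did not differ in this beyond counting error, the YAP minus WT difference being 3.08 points (−3.16 to 9.08) within 5 kb and −3.09 points (−9.12 to 2.70) beyond 50 kb.

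**Figure D1:**
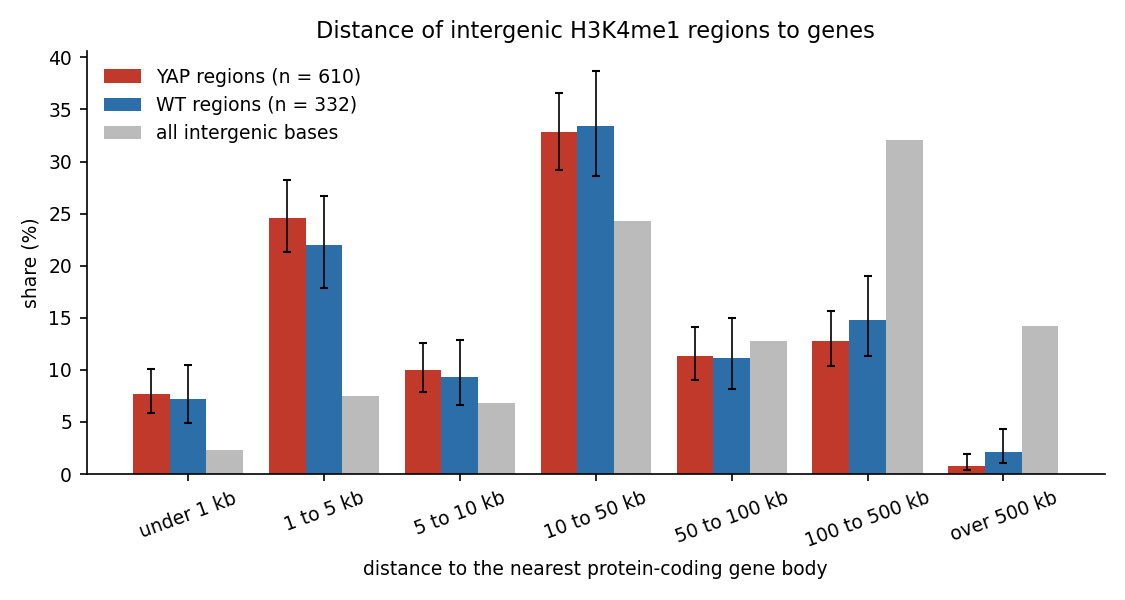
Share of intergenic H3K4me1 regions (percent) in each class of distance to the nearest protein-coding gene body, for YAP (red), WT (blue) and all intergenic bases (grey); whiskers are Wilson 95% intervals. Regions of both genotypes exceed the bases from 1 to 5 kb (24.6% in YAP and 22% in WT against 7.45%) and stay below them over 500 kb (0.82% and 2.11% against 14.2%).

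Where the direction of the nearest gene was known, YAP regions 5 to 50 kb away lay beyond its start more often than the bases there did. On the start side were 65% (58.2% to 71.3%) of 203 YAP regions and 61.8% (52.1% to 70.6%) of 102 WT regions in that range, against 54.8% of the bases, which the WT interval includes. Within 1 kb the start side held 38.1% (16 of 42, 25% to 53.2%) in YAP and 25% (5 of 20, 11.2% to 46.9%) in WT, against 50% of the bases, so that most WT regions this close lay beyond a gene's end. Over all distances the start side held 59.3% (54.8% to 63.7%) in YAP and 59.7% (53.5% to 65.6%) in WT, against 53.3% of the bases. The direction was known for 472 of 610 YAP regions and 248 of 332 WT regions.

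A gene nearest to an intergenic region often had H3K4me1 of its own. Its body carried a region of the same list for 37.2% (33.5% to 41.1%) of YAP intergenic regions and 35.2% (30.3% to 40.5%) of WT ones, where 9.84% of all 21775 protein-coding genes did in YAP and 8.48% in WT. Among regions over 50 kb away the shares were 38.2% (30.8% to 46.1%) in YAP and 34.4% (25.5% to 44.5%) in WT. Nearest genes carried H3K4me2 for 91.3% of YAP and 90.1% of WT regions, against 63.4% and 62.2% of all genes. The comparison with all genes does not allow for gene length, and long genes have more room for a region. It also sets a share of regions, in which a gene nearest to several regions counts each time, beside a share of genes.

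In all, 468 genes in YAP and 236 in WT were nearest to at least 1 intergenic region, 2.15% and 1.08% of protein-coding genes, and 89 genes were nearest in both. Among 25 genes of hepatocyte identity, 8 were nearest to a YAP region and 4 to a WT region. They were Foxa2, Cebpa and Prox1, transcription factors of liver, and Alb, Fga, Fgg, Apob and Trf, which encode proteins secreted into blood, in YAP, and Foxa2, Onecut1, Apob and Ttr in WT. Of 20 genes of growth and stress response, 9 were nearest in YAP (Id1, Id2, Jun, Junb, Btg2, Klf6, Nfkbia, Socs3 and Myc) and 4 of those 9 in WT (Id1, Klf6, Socs3 and Myc). Of 25 YAP target genes, 3 were nearest in YAP (Ajuba, Ccn1 and Nuak2) and 1 in WT (Nuak2), and of 20 biliary and progenitor genes, 3 in YAP (Hes1, Sox4 and the Notch ligand Jag1) and 1 in WT (Hes1). Liver metabolism gave 2 of 25 in YAP (Ppara and Cyp7a1) and 3 of 25 in WT (Ppara, G6pc and Cyp3a11). The 18 genes of polyamine synthesis and hypusination, and the macrophage, endothelial and stellate lists of 14, 13 and 13 genes, had none in either genotype. Over all lists, 14.5% of 173 genes were nearest in YAP and 7.51% in WT, so the YAP to WT order was that of all genes.

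The regions near these genes show how the lists differed in place. At Alb, the gene of serum albumin, YAP had 3 regions 9.56, 17.4 and 45.2 kb beyond its start, and WT had none. At Cebpa a YAP region with a score of 58 lay 4.55 kb beyond the start, on H3K4me2 of YAP and not of WT. At Onecut1, a liver transcription factor, YAP had no region and WT had 2, 70.6 and 71.5 kb beyond the start. Apob, the structural protein of liver lipoproteins, had 2 YAP and 2 WT regions 31.8 to 70.4 kb from its start, of which the pair 59 kb away overlapped between genotypes. The YAP target Nuak2, a kinase, likewise had an overlapping pair, 2.38 kb away in YAP and 2.55 kb away in WT. The single region near Ajuba, a LIM protein of the Hippo pathway, and that near Ccn1, a matricellular protein, were listed in YAP only. As at Alb, this was the common case, since 89 of the 468 genes nearest to a YAP region were also nearest to a WT region. At Hes1, a repressor in Notch signalling, the YAP region chr16:29990181-29991280 spanned 1100 bp with a score of 85, the highest score among YAP regions found in both genotypes.

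About 1 region in 3 was intergenic only with respect to protein-coding genes and lay on an annotated gene of another type. This held for 30.5% (27% to 34.3%) of YAP and 34.9% (30% to 40.2%) of WT regions, where 14.3% of intergenic bases lie on such genes, and 7.57% of all YAP and 6.52% of all WT H3K4me1 regions did. Nearly all of these were on lncRNA genes, with 174 YAP regions (28.5%) and 113 WT regions (34%) against 12% of the bases. The YAP minus WT difference of −4.45 points (−10.79 to 1.76) left no clear order between genotypes. Intergenic regions lay on 154 noncoding genes in YAP and 81 in WT, of 27824 annotated genes that are not protein-coding. The 35 in common were 22.7% of the YAP genes and 43.2% of the WT genes.

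Several lncRNA genes carried fewer YAP than WT regions, against the direction of the list totals. Regions lying close together count separately here, and this was commoner in WT. Another region of the list lay within 5 kb for 18.4% of YAP and 34.3% of WT intergenic regions. Counts for single genes after joining close regions were not computed. The gene 9030622O22Rik had 4 YAP and 9 WT regions. The gene 5031425E22Rik, which overlaps the lower end of Kmt2e, which encodes a protein with PHD and SET domains, had 1 YAP and 8 WT regions, and Lncpint, a p53-induced lncRNA, had 2 YAP and 7 WT regions. Chaserr, a lncRNA that restrains its neighbour Chd2, a chromatin remodeller, had 2 YAP and 4 WT regions. Neat1, the scaffold of nuclear paraspeckles, had 4 YAP and 3 WT regions, none overlapping between genotypes, as for most intergenic regions. More YAP than WT regions lay on Gm38906 (4 and 2), on Gm31718 (3 and 1) and on Atp10d (4 and 0), a lipid flippase gene that the RefSeq table classes as a transcribed pseudogene in this strain. Gm30505, beside the fetuin gene Ahsg, had 2 YAP and 3 WT regions and Gm41287 had 1 YAP and 3 WT regions. Among other noncoding genes looked up by name, those with an intergenic region were Pvt1 beside Myc with 3 in YAP and none in WT, the imprinted Airn with 1 in YAP and none in WT, Mir99ahg with 1 in each, and Lncppara with none in YAP and 1 in WT. Most genes looked up had none in either genotype, among them Malat1, H19, Meg3, Xist, Kcnq1ot1, Mir122, Mir21a, Gas5 and Hotair.

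**Figure D2:**
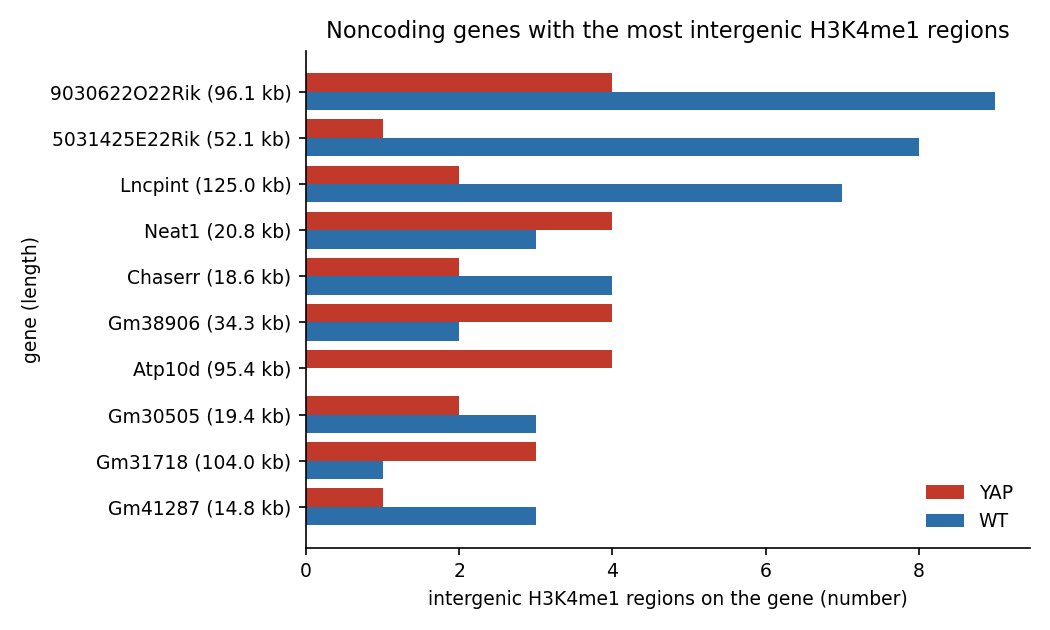
Number of intergenic H3K4me1 regions on the 10 noncoding genes with the most of them, YAP (red) above WT (blue), with the length of each gene in kb. WT exceeds YAP most at 5031425E22Rik (1 in YAP and 8 in WT), 9030622O22Rik (4 and 9) and Lncpint (2 and 7), whereas Atp10d has 4 in YAP and none in WT. Regions lying close together count separately.

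The regions at 9030622O22Rik lay in the gap between Pax1 and Foxa2, the gene of a pioneer transcription factor of endoderm and liver. All 4 YAP and 9 WT regions lay beyond the end of Foxa2, 7.27 to 49.1 kb away in YAP and 10.1 to 79.9 kb away in WT. No YAP region overlapped a WT region, which was the common case. Of all intergenic regions, 6.07% in YAP and 11.7% in WT overlapped one of the other genotype. The YAP scores were 36 to 65 and the WT scores 26 to 46. Of the YAP regions 1 lay on H3K4me2 of YAP and 2 on that of WT, and of the WT regions 2 lay on H3K4me2 of YAP and 5 on that of WT. The genotypes therefore had H3K4me1 over the same lncRNA gene at interleaved places, and lack of overlap was not particular to this gene.

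At 5031425E22Rik the single YAP region, chr5:23427606-23428044 with a score of 41, overlapped the WT region of highest score there, chr5:23427761-23428010 with a score of 73. The other WT regions ran up to 21.9 kb below Kmt2e, and of the 8 in all, 4 lay on H3K4me2 of YAP and 5 on that of WT. H3K4me2 thus lay on part of this 52.1 kb lncRNA gene in both genotypes, over 11 kb in YAP and 14 kb in WT.

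At Neat1 the YAP regions lay nearer Frmd8, the closest protein-coding gene, than the WT regions did. The 4 YAP regions lay 9.95 to 18.4 kb below Frmd8 and the 3 WT regions 21.8 to 22.6 kb below it. Of the YAP regions 3 were on H3K4me2 of YAP and all 4 on that of WT, and of the WT regions none was on H3K4me2 of YAP and 2 were on that of WT. H3K4me2 on the Neat1 gene amounted to 10.2 kb in YAP and 15.2 kb in WT.

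**Figure D3:**
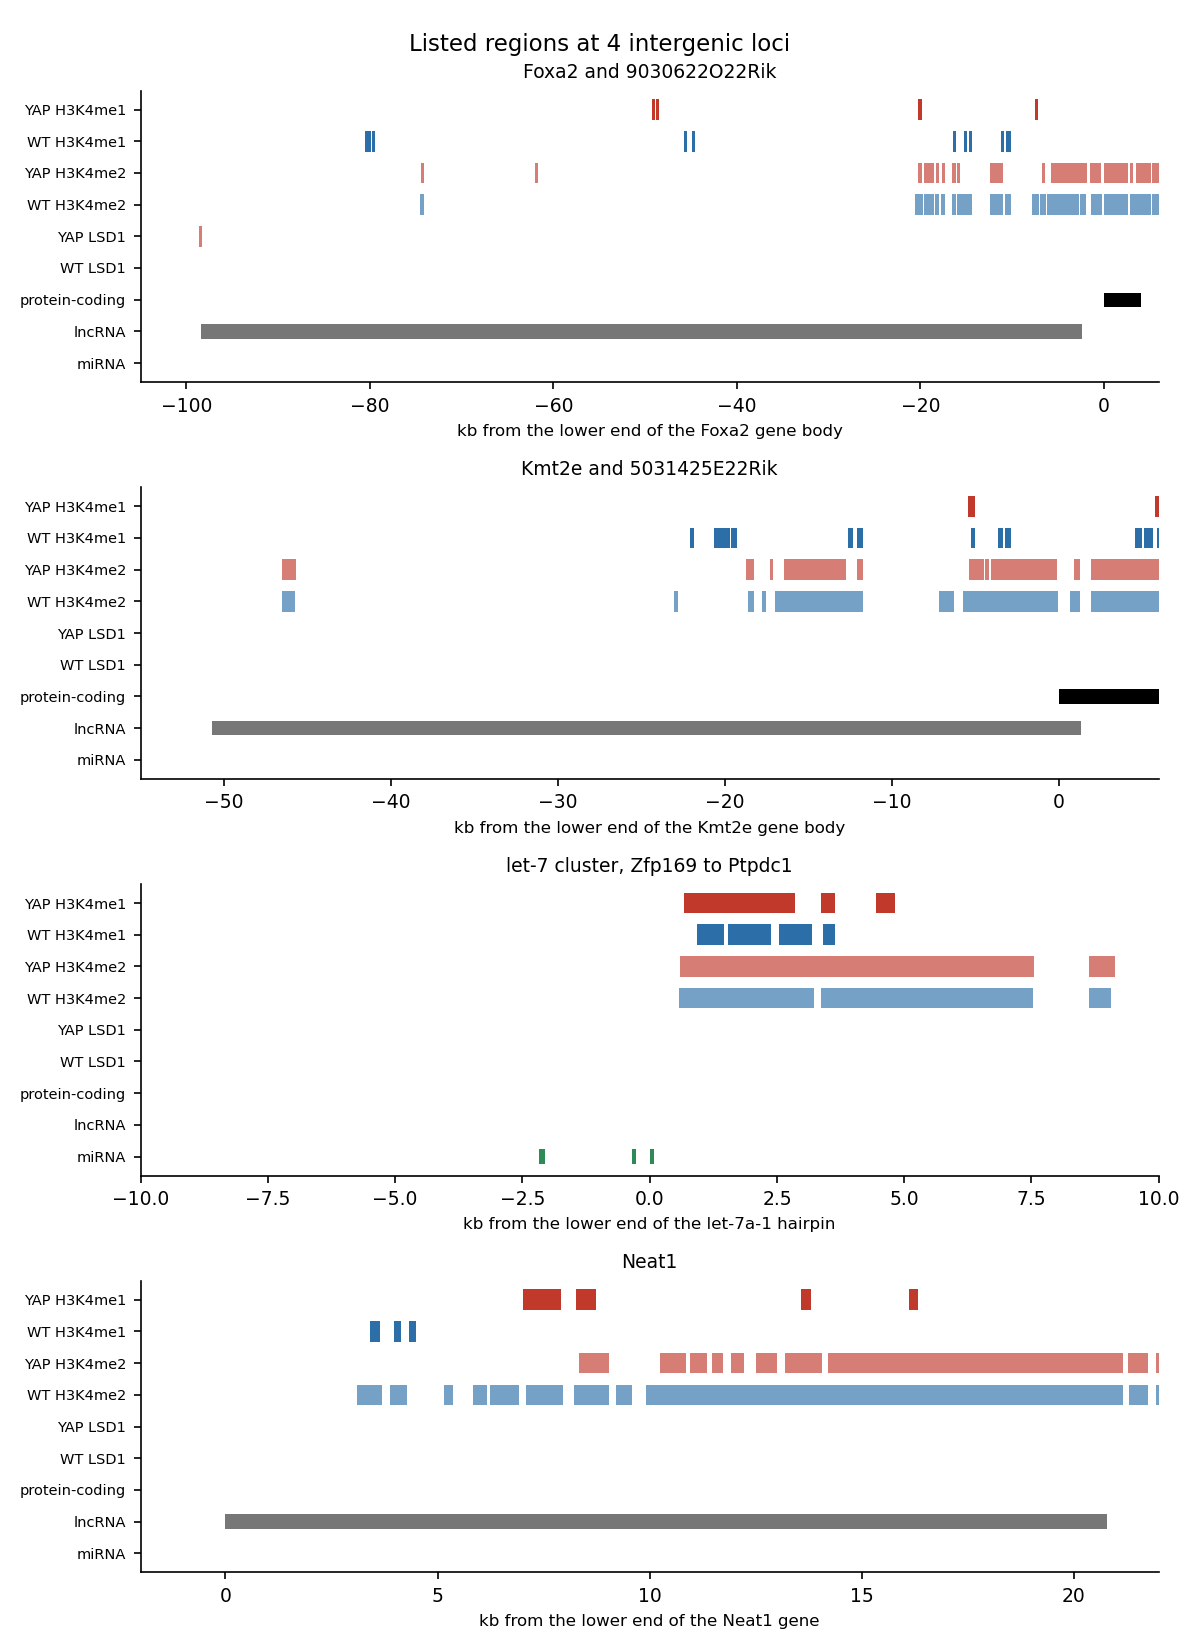
Listed H3K4me1, H3K4me2 and LSD1 regions of YAP (red) and WT (blue) at 4 intergenic loci, with protein-coding genes (black), lncRNA genes (grey) and miRNA hairpins (green); the x axis is distance in kb from the lower end of the named gene or hairpin. H3K4me1 of YAP and WT is interleaved beside Foxa2 (4 YAP and 9 WT regions), is mostly WT below Kmt2e (1 and 8), overlaps at the let-7 cluster for 2 of 3 YAP and 4 of 4 WT regions and is offset along Neat1 (4 and 3).

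The gap with the most regions besides that of Foxa2 lay between Klf14 and Mkln1 and held Lncpint. It had 6 YAP and 7 WT regions and no overlap between them, as for most intergenic regions. In the 271 kb before Selenop, the selenium transport protein secreted by liver, on chromosome 15 there were 6 YAP and 4 WT regions, 3 of each overlapping. The longest of these, chr15:3229932-3230996, was a YAP region of 1065 bp on H3K4me2 of both genotypes. Most nearest genes were nearest to regions of 1 genotype only, as 89 of the 468 in YAP and 236 in WT were in common. Likewise 368 of 459 gaps with a YAP region held none of WT, and 136 of 227 gaps with a WT region held none of YAP. The examples that follow were chosen after their values were seen. Phlda1, which encodes a pleckstrin homology-like domain protein, was nearest to 6 YAP regions and no WT region. The gap between Zfp281 and Nr5a2, which encodes a nuclear receptor of liver and bile acid metabolism, held 5 YAP regions and no WT region. Mcl1, an inhibitor of apoptosis needed in hepatocytes, and Tet2, which oxidises methylcytosine, were each nearest to no YAP region and 4 WT regions.

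At the let-7 cluster 2 of 3 YAP regions overlapped WT regions, and 4 of 4 WT regions overlapped YAP regions. Within 5 kb of a miRNA hairpin lay 11 YAP regions (1.8%) and 9 WT regions (2.71%), with no share of all H3K4me1 regions computed for comparison. At the cluster of let-7a-1, let-7f-1 and let-7d, YAP had chr13:48538851-48541034, chr13:48541539-48541817 and chr13:48542632-48542993, with scores of 52, 47 and 59. WT had chr13:48539100-48539642, chr13:48539727-48540565, chr13:48540729-48541373 and chr13:48541574-48541826, with scores of 52 to 53. The first YAP region, at 2184 bp the longest intergenic region of either list, overlapped the first 3 WT regions. The YAP region of score 59 lay beyond the last WT region and overlapped none. The longest region began 0.579 kb from the let-7a-1 hairpin, on the 5′ side of these minus-strand hairpins. All 7 regions lay on H3K4me2 of both genotypes.

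Gm51271, annotated as a miRNA gene near Chka, had 3 YAP and 2 WT regions within 5 kb, all overlapping between genotypes. The other miRNAs had a region within 5 kb in 1 genotype, which depends on this limit. Just outside it lay the YAP region chr1:23266494-23266719 at miR-30a. At miR-101a the YAP regions chr4:101340683-101340978 and chr4:101353101-101353430 did so. The WT region chr15:85703955-85704268 lay on Lncppara, 2.33 kb from let-7c-2 and 3.05 kb from let-7b on their 5′ side, and 30.6 kb from Ppara, the fatty acid sensor of liver. Another WT region lay 1.2 kb on the 5′ side of miR-30a, and another 4.26 kb from miR-101a. In YAP, regions lay 4.46 kb from miR-22, 3.58 kb from miR-365-2 and 1.06 kb from miR-31. The miR-22 region was on H3K4me2 of both genotypes and those at miR-365-2 and miR-31 on that of neither.

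Few of the intergenic regions touched a promoter window. No interval and no share of all H3K4me1 regions was computed for these counts, so a difference between genotypes was not tested. A window of 300 bases around an annotated start was touched by 19 YAP regions (3.11%) and 3 WT regions (0.904%), in 23 windows, of which 19 belonged to lncRNA genes. The 4 protein-coding windows, of Serpina3f, C3, AI182371 and Ces2a, were touched by YAP regions only, over 1 to 157 bases. The region at Gm40614, whose window is printed above, is chr10:24132196-24132765, 16.5 kb from the start of Stx7, with a score of 47 and H3K4me2 of both genotypes. The letters GGAATG, the core of TEAD sites, occurred on either strand in 5 of the 23 windows and in 14.7% of all 32851 windows of this length. The letters TGTTTAC, found in FOXA sites, occurred in 1 of 23 and in 3.65%, and Gm40614 had both, at places that do not overlap. The median number of CG pairs, counted over the whole window, was 3 in the 23 windows touched and 7 in all windows. Regions on protein-coding gene bodies were excluded by selection and most of the 23 windows are of lncRNA genes. The set of all windows was not matched for gene type, and some of the 23 overlap each other.

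Sharing between genotypes was rarer between genes than on them. A region of the other genotype overlapped 37 of 610 YAP regions, 6.07% (4.43% to 8.25%), and 39 of 332 WT regions, 11.7% (8.71% to 15.7%). On gene bodies the shares were 25.3% in YAP and 26.3% in WT, and over all H3K4me1 regions 23.5% and 25.5%. The difference, intergenic minus gene body, was −19.27 points (−21.27 to −16.82) in YAP and −14.58 points (−17.83 to −10.50) in WT. Allowing a distance of 10 kb did not close it, with 23% in YAP and 42.2% in WT between genes and 65.4% and 74.3% on gene bodies. Gene-body regions are denser, so that a distance rule finds a neighbour more easily there.

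**Figure D4:**
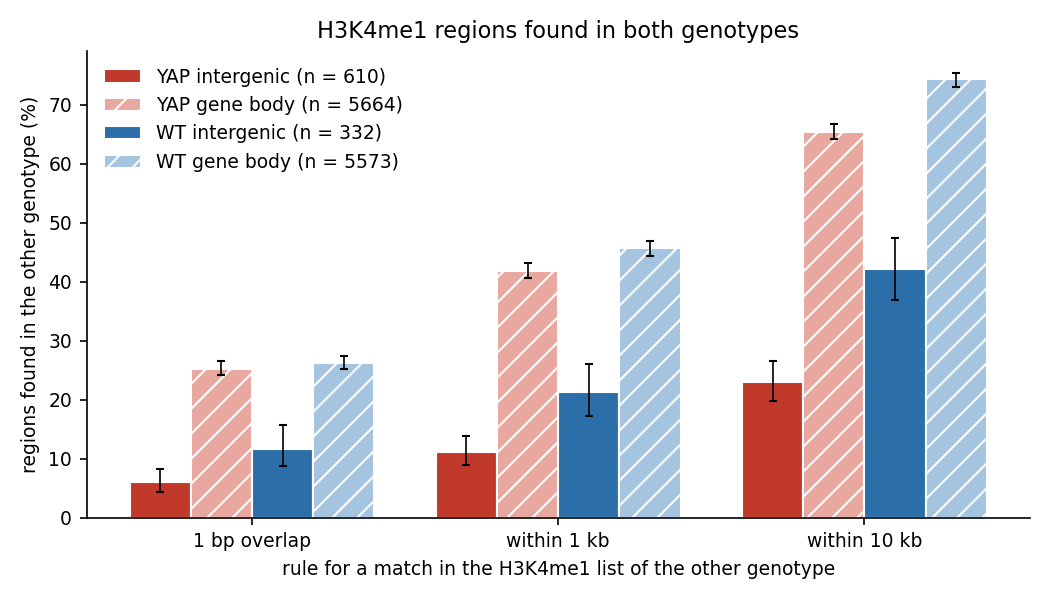
Share of H3K4me1 regions (percent) with a region of the other genotype overlapping by at least 1 bp, within 1 kb or within 10 kb, for YAP (red) and WT (blue), intergenic (solid) and on gene bodies (hatched); whiskers are Wilson 95% intervals. At 1 bp the intergenic share is 6.07% in YAP and 11.7% in WT, below the gene-body shares of 25.3% and 26.3%, and the order holds at 1 kb and 10 kb.

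By gap the same order appeared. Intergenic regions lay in 459 gaps in YAP and 227 in WT, and the 91 gaps with both were 19.8% of the YAP gaps and 40.1% of the WT gaps. Of genes with H3K4me1 on the body, 2143 in YAP and 1846 in WT, the 1255 with both were 58.6% and 68%. Exactly 1 region lay in 357 of the 459 YAP gaps and 175 of the 227 WT gaps, while such genes held more on average. A gene or gap with more regions more easily holds regions of both genotypes. WT regions were the more clustered, as 18.4% (15.5% to 21.6%) of YAP and 34.3% (29.4% to 39.6%) of WT intergenic regions had another of the same list within 5 kb, a difference of −15.98 points (−21.97 to −10.09). This was so although WT had fewer regions in all.

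Regions found in both genotypes lay near genes of secreted liver proteins and signalling, among others Selenop, Apob, Ahsg, C3, Mup20, Socs3, Nuak2, Hes1 and Dusp6. By score in YAP the first 5 were those near Hes1 (85), Marchf6, Rprd1b and Gstm4 (65 each) and Hjurp (64). The common region farthest from a gene was chr3:21497064-21497278, 579 kb from Tbl1xr1. The 37 YAP regions of this class had a median distance of 11.5 kb and the 39 WT regions 11.6 kb, and lncRNA genes lay under 43.2% (28.7% to 59.1%) and 38.5% (24.9% to 54.1%) of them.

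Among regions found in 1 genotype only, those of highest score in YAP lay near Fam50b (chr13:34724536-34724914) and Tle4 (chr19:14742016-14742268), both with a score of 92, Acer3 (85), Psen2 (78) and Commd8 (71). The last is on Atp10d, and it was the only one of these 5 on an H3K4me2 region, that of YAP. Those of highest score in WT lay near Hjurp (chr1:88285669-88286259, score 114), Serpina3m (80), Tet2 (73), Gm52006 (66) and Lrrc8d (66). Of these the Hjurp region was on H3K4me2 of WT and the Gm52006 region on that of both genotypes. Farthest from any gene were a YAP region 1124 kb from Gata3 and a WT region 976 kb from Nmbr, of which only the WT one was on H3K4me2, that of WT.

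H3K4me2 overlapped intergenic H3K4me1 far above its share of intergenic bases, yet less often than on gene bodies. H3K4me2 of the same genotype lay under 31% (27.4% to 34.8%) of YAP and 42.5% (37.3% to 47.8%) of WT intergenic regions, and under 43.2% of YAP and 53.5% of WT gene-body regions. Over all H3K4me1 regions the shares were 42% in YAP and 52.8% in WT. The difference, intergenic minus gene body, was −12.24 points (−16.01 to −8.25) in YAP and −10.98 points (−16.35 to −5.45) in WT. Counted in bases, 27.8% of intergenic H3K4me1 in YAP and 41.6% in WT was also H3K4me2, whereas H3K4me2 covered 0.85% and 0.888% of intergenic bases.

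YAP intergenic regions had H3K4me2 of their own genotype less often than WT ones, with a difference of −11.49 points (−17.92 to −5.06). It was −7.54 points (−15.38 to 0.15) for regions outside all annotated genes and 1.43 points (−2.70 to 5.13), the other way, where at least 50% of both regions had to overlap. Against 1 list of H3K4me2 this came out differently for each genotype's list. Under the YAP list lay 31% of YAP and 28% of WT regions, a difference of 2.97 points (−3.21 to 8.89), and under the WT list 31% of YAP and 42.5% of WT regions. Over all H3K4me1 regions, 44.6% of YAP ones lay under the WT list and 39.7% of WT ones under the YAP list. YAP regions were thus as often on H3K4me2 of WT as on that of YAP, while WT regions were more often on that of WT. Neither list covered 61% of YAP and 53.6% of WT regions. The nearest H3K4me2 region of the same genotype was at a median of 1604 bp in YAP and 532 bp in WT. H3K4me2 of the same genotype lay under 43.2% (16 of 37) of the common YAP regions and 30.2% of the others, and under 64.1% (25 of 39) of the common WT regions and 39.6% of the others.

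**Figure D5:**
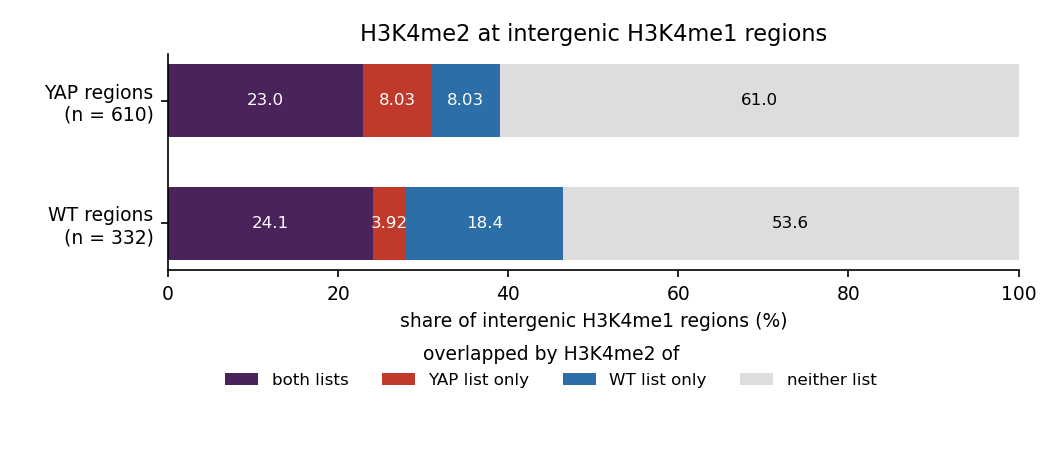
Share of intergenic H3K4me1 regions (percent) overlapped by H3K4me2 of both genotypes, of YAP only, of WT only or of neither, for 610 YAP regions (upper bar) and 332 WT regions (lower bar). H3K4me2 of WT only lies under 8.03% of YAP and 18.4% of WT regions, and H3K4me2 of YAP only under 8.03% and 3.92%.

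Few intergenic H3K4me1 regions overlapped LSD1, and few on gene bodies did. LSD1 of the same genotype overlapped 6 of 610 YAP regions, 0.984% (0.452% to 2.13%), and 2 of 332 WT regions, 0.602% (0.165% to 2.17%). On gene bodies it overlapped 0.424% in YAP and 0.179% in WT, and over all H3K4me1 regions 0.478% and 0.203%. The intergenic minus gene-body difference, 0.56 points (−0.01 to 1.71) in YAP and 0.42 points (−0.04 to 1.99) in WT, had intervals that include 0. By bases, LSD1 of the same genotype covered 0.372% of intergenic H3K4me1 in YAP and 0.757% in WT, against 0.0416% and 0.0212% of all intergenic bases, a comparison that rests on the 6 and 2 regions.

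LSD1 of the other genotype overlapped 3 YAP and 2 WT intergenic regions, against 0.239% of all YAP and 0.339% of all WT H3K4me1 regions. Counting LSD1 of either genotype, 13 of the 942 regions had it, 9 of YAP and 4 of WT, and none of the 76 regions found in both genotypes was among them. LSD1 of YAP lay on YAP regions near Bhmt, which remethylates homocysteine in liver, Fndc3b, Arid1b, Adh7, Gdf6 and Jcad. The Bhmt region, chr13:93638152-93638449, and the Fndc3b region, chr3:27711417-27711599, lay 394 and 110 bp beyond the gene's start and had H3K4me2 of both genotypes. LSD1 of WT lay on YAP regions near Gm33049, Nedd4l and Gtdc1. Among WT regions, LSD1 of WT lay near Hjurp, on the region of highest score in the WT intergenic set (114), and near Gclm, which encodes a subunit of the enzyme for glutathione synthesis, and LSD1 of YAP lay near Cradd and Ap1ar.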

How the data were processed

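The submitters' processing notes name mm10 as the build and list, in no stated order, deepTools 3.3.0, bedtools 2.26.0, Picard 1.126, SAMtools 1.7, BWA and Trimmomatic 0.39. Which program called the regions, and how the inputs entered, is not given in the sources used here. The authors deposited 1 list per antibody and genotype for both replicates, combined in a manner not stated, and read depth is unknown. In the histone lists the deposited score was the authors' −log10 p-value times 10, cut to whole numbers, from 20 upwards, and the deposited −log10 q-value was 0 for 2378 of 6274 YAP and 3986 of 5905 WT H3K4me1 regions. The signal column deposited by the authors, an enrichment without a stated definition, broke ties in score. For LSD1 the meaning of the score is not stated, and it was not used. Scores were not compared between genotypes. Region numbers run to 16113 in YAP and 10563 in WT for H3K4me1, above the number of regions, so longer lists were shortened by an unstated filter.

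Overlapping regions within a list were merged, on chromosomes 1 to 19, X and Y, and overlap meant at least 1 bp in common. Genes came from NCBI RefSeq on GRCm38.p6, which has mm10 coordinates, and 340 entries carrying scaffold coordinates were left out. Intergenic bases were counted exactly on chromosomes 1 to 19, from 3 Mb to the last protein-coding gene. Gene direction came from the promoter table. The named regions are the 5 of highest score and the 3 farthest in each class, the 5 fullest gaps (of which 1 is not reported here), the 10 fullest noncoding genes, all with LSD1, and those nearest to listed genes, of which some are named here; others are said to be chosen later. The members and lists were chosen with earlier results of these data known. Overlap counts were checked on simulated regions against bedtools 2.31.1. Computation used pandas 2.3.3 and numpy 2.4.6 under Python 3.11.15, with matplotlib 3.10.9 for plots. Alternatives covered thresholds, joining, overlap rules and gene definitions.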

Additional observations from a re-analysis of the deposited data

How the results depend on the processing

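Of 96 values under 9 alternative settings, 65 stayed inside the interval of the reported value. The YAP minus WT difference in intergenic share stayed between 2.60 and 4.72 points. With a deposited −log10 q-value above 0, the intergenic share became 8.75% in YAP and 4.53% in WT, the share found in both genotypes 3.81% and 16.1%, and, in WT alone, H3K4me2 overlap 50.6%, LSD1 overlap 2.3% and the median distance to a gene 9.28 kb. At least 5 kb from gene bodies, the share became 6.58% in YAP and 3.98% in WT, the distance 32.4 and 32.1 kb, H3K4me2 overlap 25.4% and 36.2%, and noncoding overlap in YAP 35.4%. Outside all annotated genes the share became 6.76% in YAP and 3.66% in WT, and the YAP distance 11.6 kb. Joining regions within 1 kb gave shares of 11.2% in YAP and 6.43% in WT, and the higher-scoring 50% of the YAP list 8.71%. With reciprocal overlap of 50%, H3K4me2 overlap was 10.2% in YAP and 8.73% in WT, the share in both genotypes 2.79% and 5.12%, and LSD1 overlap in YAP 0.164%. Within 1 kb, H3K4me2 overlap was 43.9% in YAP and 55.4% in WT, the share in both genotypes 11.1% and 21.4%, and LSD1 overlap 5.74% and 3.31%. Beyond the narrower or wider rule that each setting applies, the cause was not tested. No paired analysis was possible because each list pools both replicates, and no replicate could be left out for the same reason. Read depth, which can set the length of a list, is unknown for both genotypes.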
